A study of Sus scrofa with 17 samples.

Results

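The nuclear genes for subunits of respiratory complexes II, III, IV and V were followed in right ventricular heart muscle of pigs. The members were the genes named SDHA to SDHD, CYC1, COX5A, COX5B, COX6C, COX7B or COX7C, together with every gene whose name begins with UQCR, ATP5F1, ATP5M or ATP5P. This gave 29 genes among the 35670 rows of the count table: 4 of complex II, 8 of complex III, 5 of complex IV and 12 of complex V. No symbol occurred more than once, and all 29 were among the 15884 genes that passed the low-count filter. They were well measured, with between 6734 and 110978 counts for any member in any library. UQCRH, ATP5F1B, ATP5F1E, ATP5PD, ATP5MF and ATP5MJ are not analysed here.

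The libraries came from 17 pigs, 1 library per animal, and in every animal the right ventricle was under pressure overload. Of these, 7 animals received multidose umbilical cord blood mononuclear cells (UCB-MNC), given into the heart muscle, 5 received a single dose of the same cells, and 5 received vehicle. No group without pressure overload is part of the comparisons. Strain, age, the number of cells, the time of harvest, sex, weight and batch were not given per animal in the sources used here, so none of them could enter a fit. The library names fall into 2 series: 5 begin with M1 (multidose 1 to 4 and single dose 1) and 12 with M8 or M9, among them all 5 vehicle controls. The names also end in _R or not, and this nearly follows the series: 4 of the 5 M1 libraries lack it, as do 2 of the 12 others (multidose 5 and vehicle control 3). What the names and the ending stand for is not stated, and series and ending cannot be told apart in most of these libraries.

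These complexes sit in the inner mitochondrial membrane. Complex II passes electrons from succinate to coenzyme Q, complex III moves them on to cytochrome c, and complex IV hands them to oxygen. Complexes III and IV pump protons as they do so, and complex V, the ATP synthase, uses the returning protons to make ATP. Complex II is encoded wholly in the nucleus, while the other complexes also hold subunits encoded in mitochondrial DNA. Heart muscle depends on this pathway for most of its ATP.

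Total counts per library ran from 21754800 to 61144663 and differed by library name, at 26381000 ± 8215000 (SD, n = 5) for M1 and 49143000 ± 5885000 (SD, n = 12) for M8 or M9. Mitochondrially encoded transcripts took 15.8% ± 2.88 (SD, n = 5) of the counts in vehicle controls, 18.8% ± 1.91 (SD, n = 5) after a single dose and 19.0% ± 2.38 (SD, n = 7) after multidose. The tissue carried high levels of the heart muscle markers MYH7 (9584 to 36850 CPM), MYL2 (8627 to 22630 CPM) and TNNT2 (6665 to 11830 CPM). ACTC1, another heart muscle marker, ran from 254.1 to 4360 CPM. The skeletal muscle myosins MYH1 and MYH4 were at 0 in 12 and 16 of the 17 libraries. The whole list of 10 skeletal muscle markers, with ACTA1 and CKM among them, was not near 0. It summed to 26991 to 33361 CPM in M1 and 28233 to 50810 CPM in M8 or M9 libraries. Vehicle control 3 stands apart for many members and single dose 4 and vehicle control 1 for some, so values without these libraries are given where they matter. Levels below are CPM, a gene's counts relative to the library's total, scaled by the trimmed mean of M-values. A deviation is a library's log2 CPM minus the gene's median over the 17 libraries.

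Together the 29 genes held 1.38% ± 0.179 (SD, n = 5) of all counts in vehicle controls, 1.61% ± 0.294 (SD, n = 5) after a single dose and 1.699% ± 0.244 (SD, n = 7) after multidose. The share was lowest in vehicle control 3, at 1.10%, and highest in multidose 3, at 2.04%. By library name it was 1.89% ± 0.134 (SD, n = 5) in M1 and 1.45% ± 0.191 (SD, n = 12) in M8 or M9 libraries. The range of M1, from 1.73% to 2.04%, lay above that of M8 or M9, from 1.10% to 1.71%, whereas the ranges of the treatment groups overlapped. In heart tissue measured in bulk, fewer muscle cells and less of these transcripts per cell cannot be told apart.

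**Figure D1:**
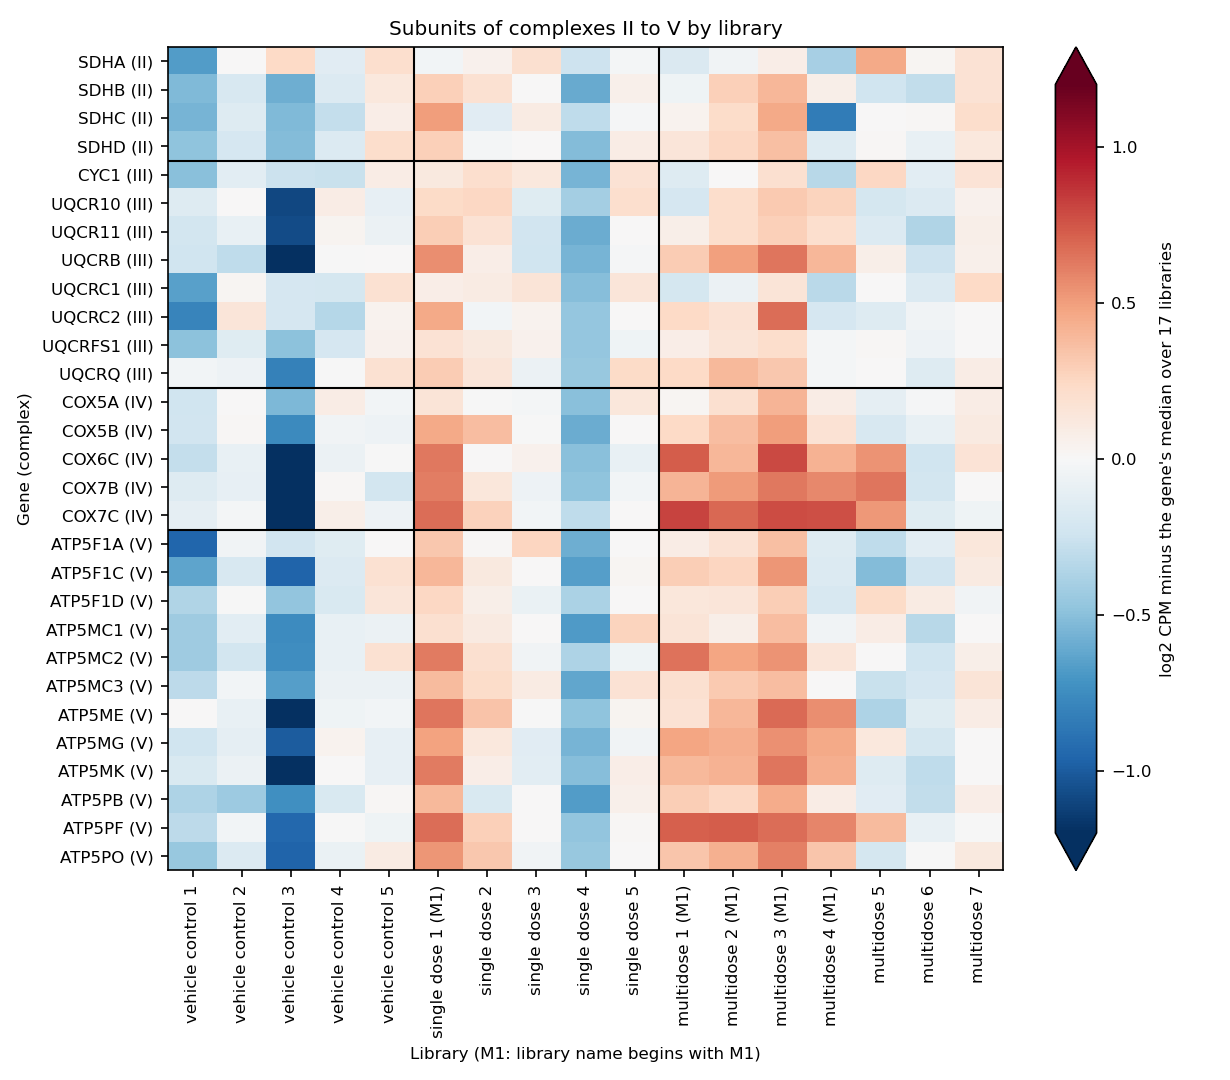
Deviation of each of the 29 genes (rows, complex in brackets) in each library (columns, grouped by treatment), as log2 CPM minus the gene's median over the 17 libraries. Colours stop at 1.2 in either direction. Vehicle control 3 is lowest for 21 of the 29 genes, single dose 4 and vehicle control 1 are low across many rows, and multidose 3 is highest for 18.

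No member passed an adjusted p of 0.05 between multidose and vehicle control (edgeR quasi-likelihood test, Benjamini-Hochberg adjustment over 15884 genes). The background was the same, with 0% of all genes called. The log2 fold change (multidose over vehicle control) was above 0 for 29 of 29 members, against 49.3% of all genes. Its median was 0.33 over the members and -0.0051 over all genes. The smallest was that of SDHA, at 0.075, and the largest that of COX7C, at 0.74, and adjusted p ran from 0.366 to 0.866. At an unadjusted p under 0.05, 11 of 29 members were higher, against 6.74% of all genes. These were 2 of complex III, 3 of complex IV, 6 of complex V and 0 of complex II. DESeq2 and limma-voom also called 0 members, and DESeq2 called 8 genes in all. No member had multidose and control ranges that did not overlap, against 0.145% of all genes. The multidose minus control medians were 0.31 for complex II, 0.27 for complex III, 0.67 for complex IV and 0.45 for complex V.

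Complex II (succinate dehydrogenase) has a catalytic head made of SDHA, which carries the FAD cofactor, and SDHB, which carries iron-sulfur clusters, held to the membrane by SDHC and SDHD. SDHA (ENSSSCG00000020686; chromosome 16, 79838442 to 79862956, Sscrofa11.1) stood at 383, 611, 722, 556 and 704 CPM in vehicle controls 1 to 5. Single dose libraries 1 to 5 had 598, 632, 699, 514 and 602 CPM, and multidose libraries ranged from 463 (multidose 4) to 836 CPM (multidose 5), with a median of 620.4 CPM. The 3 groups of SDHA values overlapped almost fully, with vehicle control 1 the lowest library of all and vehicle control 3 among the high ones. Its multidose minus control log2 fold change of 0.075 (SE 0.17, adjusted p = 0.866, edgeR) was the smallest of the 29.

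SDHB (ENSSSCG00000020926; chromosome 6, 75648362 to 75678111) read 248, 312, 238, 319 and 389.9 CPM in the vehicle controls. It read 436, 406, 357, 235 and 372 CPM in the single dose libraries and 291 to 469.8 CPM in multidose, with a median of 376 CPM. Low SDHB values came from vehicle controls 1 and 3 and single dose 4, and the groups overlapped. The log2 difference was 0.31 (SE 0.17, adjusted p = 0.448, edgeR). For the membrane anchor SDHD (ENSSSCG00000015034; chromosome 9, 39790654 to 39803602) the controls had 208, 254, 204, 260.5 and 337 CPM. Single dose libraries had 357, 286, 292, 204 and 312 CPM, and multidose libraries 262 to 375 CPM, with a median of 319 CPM. SDHD in vehicle control 5 was above 5 of the 7 multidose values, whereas the other 4 controls lay below the lowest of them. Its log2 difference, 0.31 (SE 0.15, adjusted p = 0.411, edgeR), had the smallest p of complex II. SDHC (chromosome 4, 89135410 to 89169164), the other anchor, differed by 0.33 (SE 0.19). Its level was 161 CPM in multidose 4, against 288 to 395 CPM in the other multidose libraries.

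Complex III (the cytochrome bc1 complex) contains CYC1 (cytochrome c1), the Rieske iron-sulfur protein UQCRFS1 and the large core proteins UQCRC1 and UQCRC2, surrounded by small subunits that include UQCRB, UQCRQ, UQCR10 and UQCR11. UQCRB (ENSSSCG00000055783; chromosome 4, 40403272 to 40409080), a small subunit near the coenzyme Q site, had the smallest p of the complex. Vehicle controls held 373, 356, 168, 438 and 439.5 CPM, and single dose libraries 649, 464, 373, 298 and 435 CPM. Multidose libraries ran from 369 CPM (multidose 6) to 685 CPM (multidose 3), with a median of 543 CPM. All 4 multidose libraries named M1 and single dose 1, also M1, were above every M8 or M9 library, while multidose 5 to 7 read 461, 369 and 458 CPM, against a highest control of 439.5 CPM. The multidose minus control log2 fold change was 0.58 (SE 0.23, adjusted p = 0.375, edgeR), and it was 0.40 without vehicle control 3.

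UQCRC1 (ENSSSCG00000011356), a core protein facing the matrix, had the largest p. It read 436, 695, 594, 591 and 775 CPM in vehicle controls and 721, 731, 758, 479.8 and 753 CPM in single dose libraries. Multidose libraries ran from 546 to 807 CPM, with a median of 648 CPM. The groups overlapped throughout for UQCRC1, vehicle control 1 and single dose 4 were the lowest libraries, and vehicle control 3 was not low. Its log2 difference was 0.10 (SE 0.16, adjusted p = 0.804, edgeR), and -0.053 without vehicle controls 1 and 3.

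The remaining members of complex III lay between these. CYC1 differed by 0.21 and the Rieske protein UQCRFS1 by 0.30, the latter with an unadjusted p of 0.0421. UQCRC2, the other core protein, had a log2 fold change of 0.32. The small subunits UQCR10 (chromosome 14, 46783340 to 46786140), UQCR11 and UQCRQ differed by 0.25, 0.30 and 0.25. Without vehicle control 3 these 3 small subunits stood at 0.096, 0.15 and 0.11, while CYC1 and UQCRC2 moved little, to 0.20 and 0.32.

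Complex IV (cytochrome c oxidase) has its catalytic core encoded in mitochondrial DNA, and the nuclear members here are supernumerary subunits around it. COX5A and COX5B sit on the matrix side, and COX6C, COX7B and COX7C each cross the membrane. The 3 membrane-spanning subunits had 3 of the 4 largest multidose minus control differences of the 29 genes. COX6C (ENSSSCG00000060790; chromosome 4, 37074619 to 37089364) held 387, 443, 179.7, 449 and 472 CPM in the vehicle controls. Single dose libraries held 733, 472, 491, 334 and 445 CPM, and multidose libraries 400.0 (multidose 6) to 819 CPM (multidose 3), with a median of 632 CPM. In COX6C, 6 of the 7 multidose libraries exceeded every control and multidose 6 fell among them, and vehicle control 3 was far below the other 4 controls. The log2 fold change was 0.73 (SE 0.24, adjusted p = 0.366, edgeR), 0.55 without vehicle control 3 and 0.47 among M8 and M9 libraries.

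COX7C (ENSSSCG00000040325; chromosome 2, 94345436 to 94347709) had the smallest p of complex IV by library name. It stood at 617, 652, 255, 699.6 and 639 CPM in the vehicle controls and at 1057, 805, 649.8, 539.5 and 665 CPM in single dose libraries. Multidose 1 to 4 had 1167, 1071, 1146 and 1133 CPM, and multidose 5 to 7 had 951, 602 and 642 CPM. The 5 M1 libraries formed a narrow band, 1115 ± 48.3 CPM (SD, n = 5), above all 12 others, which averaged 643 ± 162 CPM (SD, n = 12). Multidose 6 and 7 lay inside the control range, so the multidose and control groups overlapped. The multidose minus control log2 fold change of COX7C was 0.74 (SE 0.25, adjusted p = 0.366, edgeR), 0.56 without vehicle control 3 and 0.34 among M8 and M9 libraries.

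COX5A (ENSSSCG00000024316), with the largest p of the complex, read 368, 435, 299.5, 463 and 425 CPM in vehicle controls. Single dose libraries had 485, 434, 427, 307 and 477 CPM and multidose libraries 404 to 579 CPM, with a median of 463 CPM. Vehicle control 3 and single dose 4 were the low libraries for COX5A, and the other values of the groups overlapped. The log2 difference was 0.23 (SE 0.14, adjusted p = 0.487, edgeR). COX5B (chromosome 3, 56630297 to 56632107), a zinc-binding subunit, differed by 0.37, and COX7B by 0.67 with an unadjusted p of 0.00771. COX7B stood at 0.51 without vehicle control 3 and at 0.45 among M8 and M9 libraries.

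**Figure D2:**
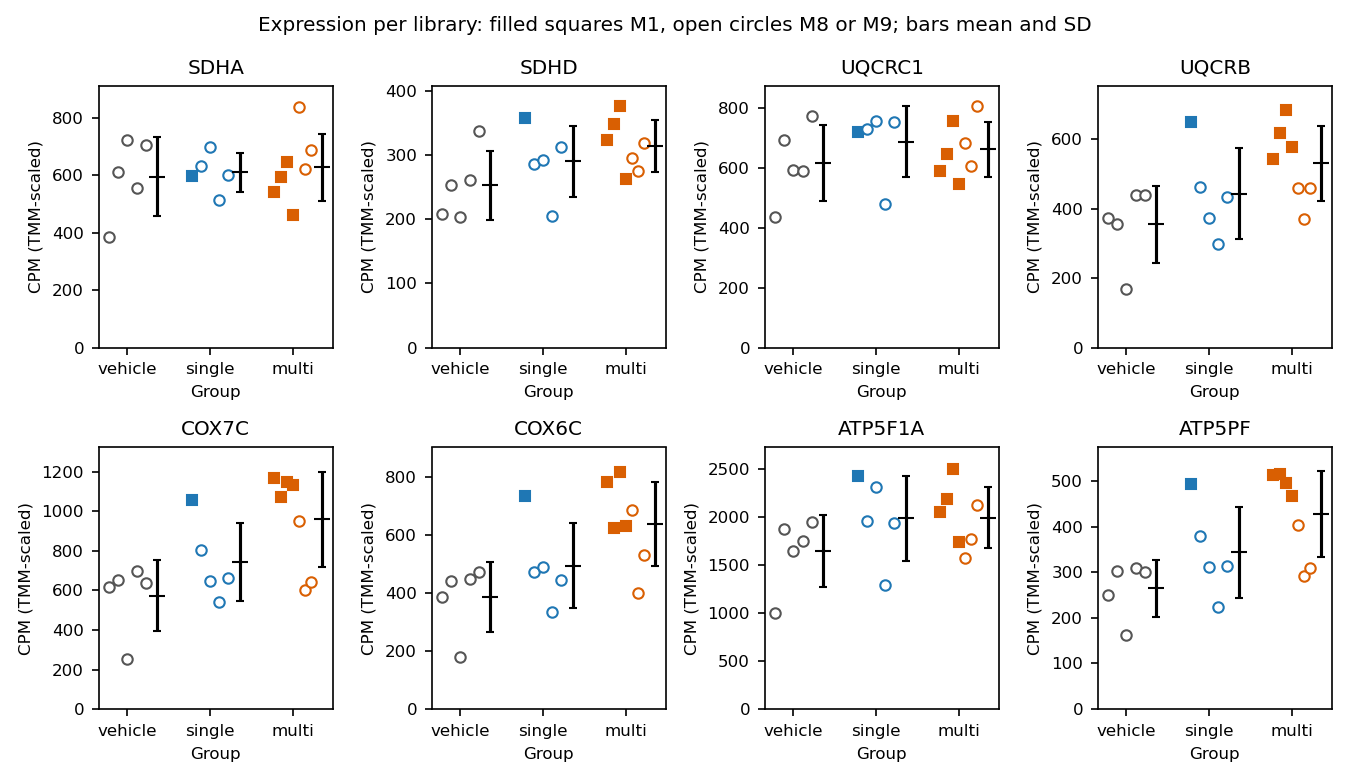
Expression of 8 members in CPM (vertical axis from 0) for each animal by treatment group. Squares are M1 libraries, circles M8 or M9 libraries, and bars the group mean and SD. For COX7C the 5 squares lie between 1057 and 1167 CPM and the highest circle at 951 CPM, whereas for SDHA squares and circles mix.

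Complex V joins a catalytic head, to which ATP5F1A (alpha) belongs, a central stalk with ATP5F1C (gamma) and ATP5F1D (delta), a membrane ring of subunit c, and a peripheral stalk. ATP5F1A (ENSSSCG00000004499) had the largest p of the complex between multidose and control. Vehicle controls held 1003, 1878, 1651, 1750.5 and 1946 CPM, and single dose libraries 2427, 1960.0, 2313, 1294 and 1938 CPM. Multidose libraries ran from 1571 CPM (multidose 5) to 2497 CPM (multidose 3), with a median of 2056 CPM. Vehicle control 1 was the lowest ATP5F1A library, vehicle control 3 lay among the other controls, and the groups overlapped. The log2 fold change was 0.28 (SE 0.19, adjusted p = 0.5259, edgeR), and 0.10 without vehicle controls 1 and 3. The central stalk genes ATP5F1C and ATP5F1D differed by 0.38 and 0.26.

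Peripheral stalk subunits hold the head still while the ring turns. ATP5PF (coupling factor 6; ENSSSCG00000038399) had the smallest p of all members, 0.00461 before adjustment. It stood at 251, 304, 162, 309.8 and 300.2 CPM in vehicle controls and at 493, 379, 311, 223 and 313 CPM in single dose libraries. Multidose 1 to 4 read 512, 516, 496 and 467 CPM, and multidose 5 to 7 read 403, 293 and 309 CPM. The M1 values of ATP5PF clustered at 497 ± 19.5 CPM (SD, n = 5), above every other library, and multidose 6 and 7 lay within the range of the controls. The multidose minus control log2 fold change was 0.69 (SE 0.21, adjusted p = 0.366, edgeR), 0.56 without vehicle control 3 and 0.325 among M8 and M9 libraries. The other stalk genes, ATP5PB (subunit b) and ATP5PO (OSCP, which joins the stalk to the head), differed by 0.44 and 0.52.

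The c ring is built from 1 mature protein encoded by 3 genes, ATP5MC1, ATP5MC2 and ATP5MC3, which differ in their mitochondrial targeting peptides. Their coding parts are alike, and how reads matching several places were counted is not given in the sources used here, so the division of counts among them is uncertain. ATP5MC2 (ENSSSCG00000062561) held 186, 215, 149.7, 236 and 284 CPM in vehicle controls and 388, 287, 244, 194 and 243 CPM in single dose libraries. Its multidose values ran from 213 CPM (multidose 6) to 393 CPM (multidose 1), with a median of 278 CPM. Among multidose animals the 4 M1 libraries were all above the other 3, while vehicle control 5, at 284 CPM, exceeded multidose 4. The ATP5MC2 log2 difference was 0.49 (SE 0.20, adjusted p = 0.374, edgeR), against 0.33 for ATP5MC1 and 0.31 for ATP5MC3. The small membrane subunits ATP5ME and ATP5MG (e and g, which help pair ATP synthases) and ATP5MK differed by 0.46, 0.52 and 0.53. Among M8 and M9 libraries these 3 stood at 0.078, 0.205 and 0.13.

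**Figure D3:**
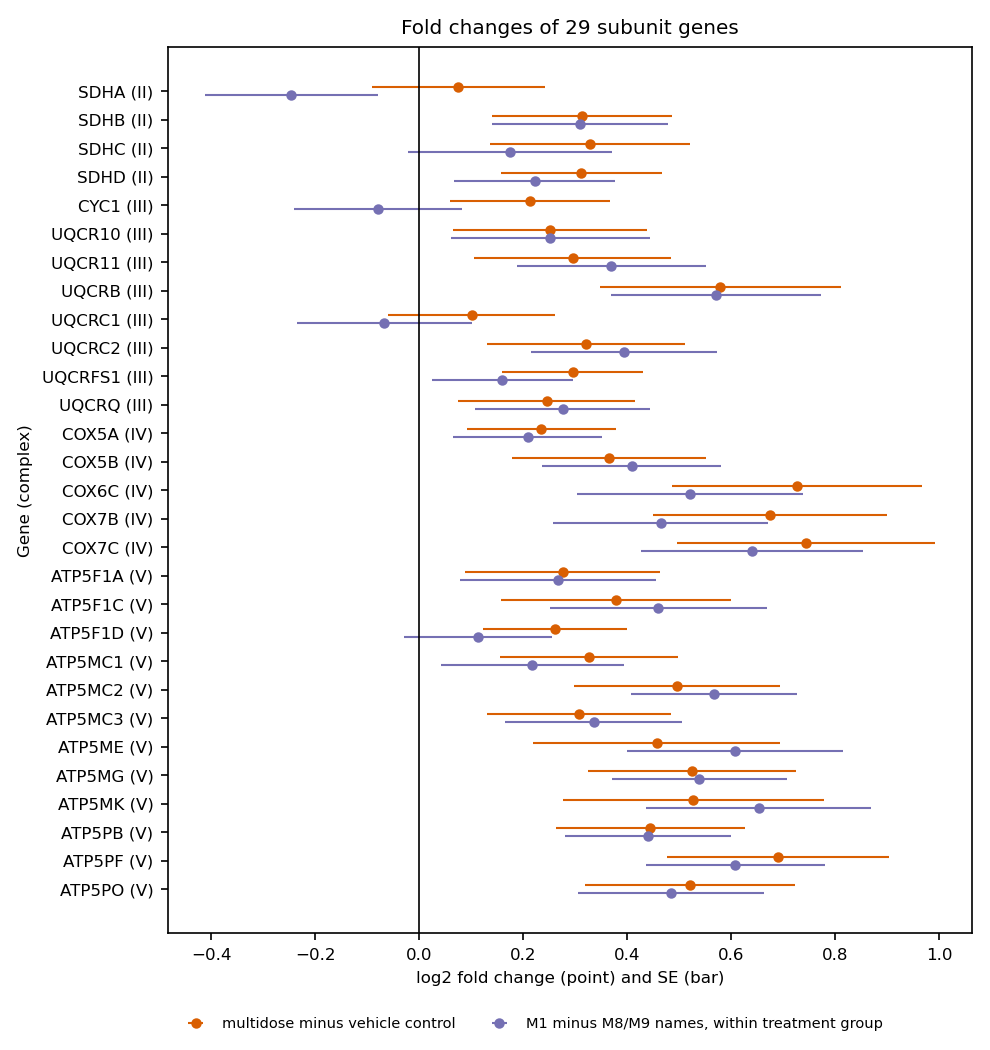
log2 fold change (point) and SE (bar) of the 29 members for multidose minus vehicle control and for M1 minus M8 or M9 names fitted within treatment groups. All multidose points lie above 0, from 0.075 (SDHA) to 0.74 (COX7C). The name term runs from -0.25 (SDHA) to 0.65 (ATP5MK).

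Between single dose and vehicle control no member passed either (edgeR, Benjamini-Hochberg adjusted p 0.891 to 0.983), with 0% of all genes called. At an unadjusted p under 0.05 there were 0 members, against 5.26% of all genes in either direction and 2.42% higher. DESeq2 called 0 members and 10 genes in all, and limma-voom 0 of either. The log2 fold change was above 0 for 29 of 29 members, against 50.4% of all genes, with a median of 0.28 against 0.0025. It ran from 0.033 for SDHA to 0.38 for ATP5PO, and the complex medians were 0.23 (II), 0.22 (III), 0.36 (IV) and 0.31 (V). This comparison uses the same 5 controls as the multidose comparison, so the comparisons are not independent. The median was 0.17 without single dose 1, the M1 library, and 0.40 without single dose 4. In the latter fit 9 of 29 members were higher at an unadjusted p under 0.05, as were 3.09% of all genes.

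Between the 2 dosing schedules no difference was called (0% of all genes, edgeR, adjusted p of 1 for each member). None of the 29 had an unadjusted p under 0.05, against 2.11% of all genes in either direction and 0.888% higher. DESeq2 and limma-voom called 0 members and 0 genes. Multidose minus single dose was above 0 for 27 of 29 members, against 50.5% of all genes, with a median of 0.095 against 0.0018. The exceptions were CYC1, at -0.026, and UQCRC1, at -0.056, and the largest difference was that of COX6C, 0.37 (SE 0.24). With the library name as a covariate 13 of 29 were above 0 and the median was -0.033, and without single dose 4 the count was also 13 and the median -0.013. The median was 0.20 without single dose 1, where 3 of 29 members and 4.75% of all genes had an unadjusted p under 0.05. In limma-voom with quality weights it was 0.23, with 6 of 29 members and 10.1% of all genes at that p.

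The contrast by library name, M1 against M8 or M9, was fitted with treatment as a term and rests on the 12 dosed animals, since no control is M1. Only 1 of the 5 M1 libraries is outside the multidose group. In this fit 3 of 29 members rose and 0 fell, while 5.92% of all genes rose and 8.06% fell, 14% in all. The 3 were all of complex V: ATP5MC2 by 0.57 (SE 0.16, adjusted p = 0.0267, edgeR), ATP5PF by 0.61 (SE 0.17, adjusted p = 0.0274) and ATP5MG by 0.54 (SE 0.17, adjusted p = 0.0406). ATP5MG (ENSSSCG00000052280) held 544 to 589 CPM in M1 libraries and 201 to 438 CPM in the others. At an unadjusted p under 0.05, 14 of 29 were higher, against 13.5% of all genes. For 7 members every M1 library was above every M8 or M9 library, namely UQCRB, COX7C, ATP5MG, ATP5MK, ATP5PB, ATP5PF and ATP5PO, and 2.73% of all genes showed this. These ranges are CPM of all libraries, vehicle controls among them, and are not adjusted for treatment.

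The name term was above 0 for 26 of 29 members, against 48.6% of all genes, and its median was 0.37 against -0.014. Among the libraries ending in _R, where multidose 4 is the single M1 library, the median was 0.12, 20 of 29 were above 0 and the core median was -0.18. SDHA, at -0.25 (SE 0.17), CYC1, at -0.078, and UQCRC1, at -0.067, were below 0 without passing the test. Complex II also held SDHB, at 0.31, SDHC, at 0.17, and SDHD, at 0.22. In complex III, UQCRB had the highest value, 0.57 (SE 0.20, adjusted p = 0.067, edgeR), followed by UQCRC2 at 0.39 and UQCR11 at 0.37. In complex IV the values were 0.64 for COX7C, 0.52 for COX6C, 0.46 for COX7B, 0.41 for COX5B and 0.21 for COX5A. In complex V they ran from 0.11 for ATP5F1D to 0.65 for ATP5MK (SE 0.22, adjusted p = 0.0519), with ATP5ME at 0.61. Which members passed depended on single libraries: 0 were called without single dose 1 or without multidose 6, where 2.18% and 3.09% of all genes rose. Without multidose 1 or multidose 7, 1 was called, and 4.20% and 5.97% of all genes rose, and without vehicle control 3, 11 were called, and 8.14% of all genes rose. M1 libraries were shallower on average. After thinning every library to the smallest total the same 3 members were called, and 6.06% of all genes rose. Thinning evens out the totals only and leaves in place any difference between libraries that goes with depth.

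When the genes were sorted by role, 11 were placed as core subunits (the SDH genes, CYC1, UQCRC1, UQCRC2, UQCRFS1, ATP5F1A, ATP5F1C and ATP5F1D), 12 as small supernumerary subunits, 3 as c ring and 3 as peripheral stalk. This sorting was made with the values known and serves as description. For M1 against M8 or M9 the medians were 0.17 for core, 0.49 for small, 0.34 for ring and 0.48 for stalk genes. For multidose against control they were 0.30, 0.49, 0.33 and 0.52. A library's median deviation over small subunits exceeded that over core subunits by 0.19 to 0.60 in the 5 M1 libraries. In the 12 others this gap ran from -0.70 (vehicle control 3) to 0.36 (vehicle control 1).

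Some libraries were low in both classes and some in 1. Single dose 4 was low in core (-0.51) and in small subunits (-0.50) alike. Vehicle control 1 was lower in core subunits, at -0.56, than in small ones, at -0.20, and vehicle control 3 was the reverse, at -0.47 and -1.17. Vehicle control 3 was the lowest of the 17 libraries for all 18 members that are not core and for 3 of the 11 core genes. Vehicle control 1 was the lowest for 5 members, all of them core, single dose 4 for 2 and multidose 4 for SDHC. Multidose 4 had low core genes (-0.19) and high small ones (0.41). Multidose 5, an M8 library, had the highest level of SDHA, CYC1 and COX7B, and its complex IV median deviation was 0.52 while that of complex V was -0.14.

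**Figure D4:**
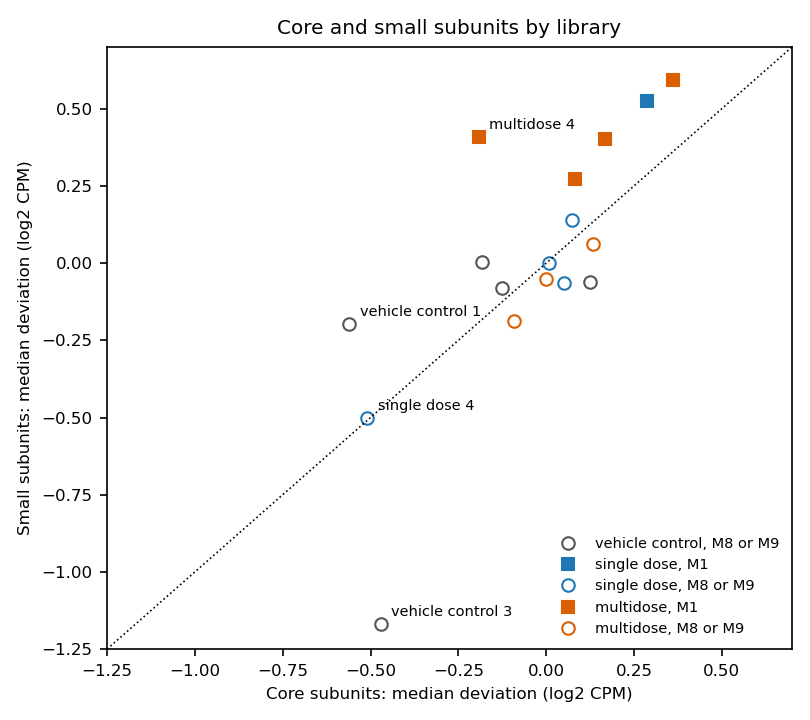
Median deviation of 11 core subunit genes (horizontal) and 12 small subunit genes (vertical) in each library, both in log2 CPM, with the dotted line marking equal values. The 5 M1 libraries (squares) lie above the line, and vehicle control 3 lies far below it, at -0.47 and -1.17.

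The size of the multidose minus control difference varied with the libraries included. Its median over the 29 genes was 0.33 with all 17 libraries, 0.25 without vehicle control 3, 0.15 without vehicle controls 1 and 3, and 0.19 among M8 and M9 libraries (3 multidose and 5 control animals). Among M8 and M9 libraries without vehicle control 3 it was 0.11, and 23 of 29 members were above 0. The number of members higher at an unadjusted p under 0.05 was 11, 4, 3, 0 and 0 in these fits, and the share of all genes 6.74%, 4.15%, 3.56%, 1.5% and 1.90%. No gene was called in any of them. In the M8 and M9 libraries the core median was 0.21 and the small median 0.13, the opposite order to that in all libraries. For single dose minus control the median was 0.28, 0.18, 0.10, 0.17 and 0.062 in the same 5 fits, and without vehicle control 3 the M8 and M9 libraries had 21 of 29 above 0.

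**Figure D5:**
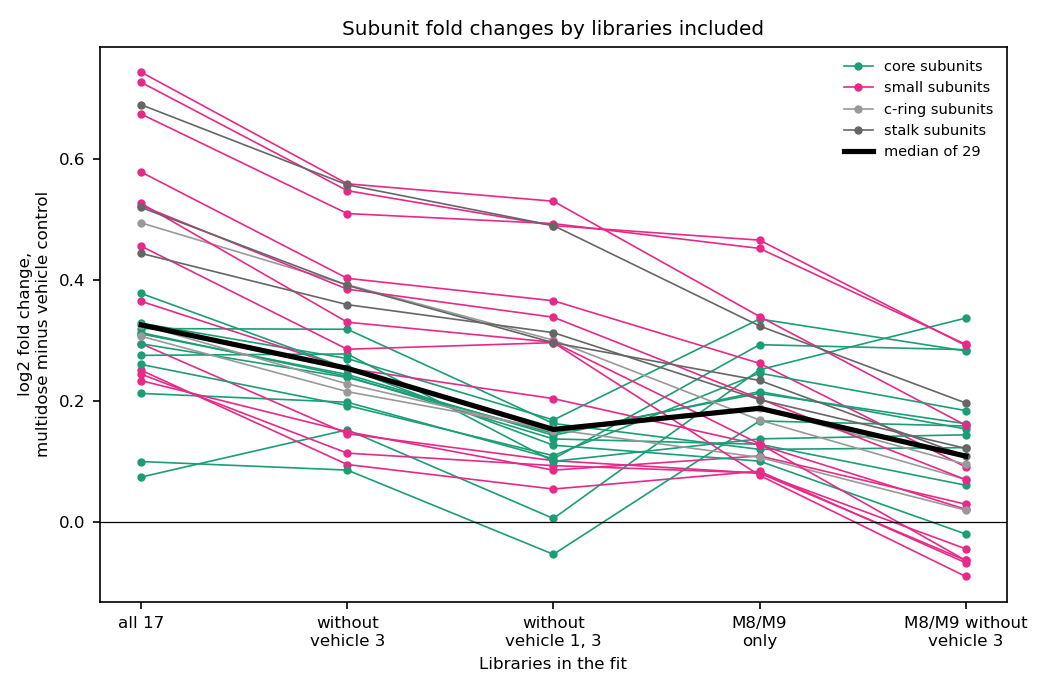
log2 fold change of each member (line) for multidose minus vehicle control in 5 fits that differ in the libraries included, coloured by role, with the median of the 29 in black. The median moves from 0.33 with all 17 libraries to 0.11 among M8 and M9 libraries without vehicle control 3.

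Other genes of the pathway were counted from lists, none of which had a member called between multidose and control (edgeR, adjusted p). Complex I, which feeds electrons from NADH into the chain, had 32 nuclear genes tested, all above 0 with a median of 0.33, led by NDUFA8 at 0.47 (SE 0.16) and NDUFA5 at 0.43 (SE 0.15). The 13 mitochondrially encoded genes were also all above 0, with a median of 0.39. Of 9 further nuclear genes of complex IV, 8 were above 0, with a median of 0.37, and the heart and muscle isoform COX7A1 stood at 0.87 (SE 0.32). Adenine nucleotide and phosphate carriers, which exchange ADP, ATP and phosphate across the membrane, were above 0 in 6 of 6, with a median of 0.265. The electron carriers and coenzyme Q genes had 12 of 13 above 0 and a median of 0.17. Assembly factors had medians of 0.18 for complex II (3 of 3 above 0), 0.145 for complex III (8 of 9), 0.23 for complex IV (18 of 23) and 0.19 for the ATP synthase with its inhibitor (5 of 6). Regulators of mitochondrial biogenesis were above 0 in 6 of 14, with a median of -0.052.

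By library name, complex I had 6 of 32 genes that rose, against 5.92% of all genes, and a median of 0.33, led by NDUFB6 at 0.74 (SE 0.16, adjusted p = 0.00927, edgeR). The other complex IV genes had 2 of 9 that rose, COX7A1 by 1.13 (SE 0.19, adjusted p = 0.00305) and COX4I2 by 0.65 (SE 0.18, adjusted p = 0.0277). None of the 13 mitochondrially encoded genes passed, and their median was 0.080. The assembly factors had 0 of 3 called for complex II, 2 that rose and 1 that fell of 9 for complex III, 2 that rose of 23 for complex IV, and 1 that fell of 6 for the ATP synthase. Among the electron carriers and coenzyme Q genes 2 of 13 rose, and 1 of 6 carriers did. Of the 14 biogenesis regulators 1 rose and 2 fell. PPRC1, a coactivator related to PGC-1, fell by 0.70 (SE 0.11, adjusted p = 0.00187), and POLRMT, the mitochondrial RNA polymerase, fell by 0.51 (SE 0.10, adjusted p = 0.00614).

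The 54 cytoplasmic ribosomal protein genes, a list added after the values were seen, were all above 0 between multidose and control. The median was 0.475 and 0 were called. In M1, 38 of the 54 genes rose, against 5.92% of all genes, with a median of 0.705. Their median deviation was -1.17 in vehicle control 3, and 0.39 to 0.81 in the M1 libraries. In vehicle control 3 the median deviation was -0.87 for complex I, -0.71 for mitochondrially encoded genes and -0.50 for cardiomyocyte markers. Vehicle control 1 stood at -0.28, -0.82 and -0.39 on these 3 lists, and single dose 4 at -0.50, -0.49 and -0.29.

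Of the 13 cardiomyocyte markers measured, 12 were above 0 between multidose and control, with a median of 0.32 and 0 called. Their summed level ran from 53149 to 80940 CPM in vehicle controls, from 67725 to 85778 CPM after a single dose and from 68010 to 98693 CPM after multidose. By library name it ran from 73862 to 98693 CPM in M1 and from 53149 to 91767 CPM in the others. The name term was above 0 for 9 of the 13 markers, with a median of 0.23, and 0 of 13 were called. The part of muscle content in the subunit differences was not tested.

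In the lists of other cell types 0 markers were called between multidose and control. The 12 T and NK cell markers were all below 0, with a median of -0.74, and summed to 21.7 to 81.8 CPM in controls, 22.1 to 49.8 CPM after a single dose and 16.7 to 46.4 CPM after multidose. Endothelial markers were above 0 in 2 of 10, with a median of -0.17, and mural cell markers in 1 of 9, with a median of -0.25. Fibroblast markers were above 0 in 7 of 10 (median 0.077), macrophage and myeloid markers in 6 of 10 (0.077), Schwann cell markers in 2 of 6 (-0.15) and adipocyte markers in 4 of 5 (0.115). Red blood cell markers were above 0 in 1 of 4 (median -0.315), atrial markers in 2 of 6 (-0.25) and skeletal muscle markers in 2 of 5 (-0.36). NPPA, counted here in the atrial list, was 59.6 to 4794 CPM over all libraries, and ADIPOQ was at 0 in 3. In tissue measured in bulk, atrial tissue and NPPA made by the ventricle cannot be told apart.

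In the contrast by library name, 4 of 12 T and NK cell markers fell (median -0.80), against 8.06% of all genes, and 4 of 10 fibroblast markers rose (median 0.54), against 5.92%. Summed fibroblast markers were 5161 to 9304 CPM in M1 and 3354 to 7248 CPM in the other libraries. Of the atrial markers 1 of 6 rose and 2 fell. NPPA fell by 3.86 (SE 0.62, adjusted p = 0.00223, edgeR). Of the Schwann cell markers 3 of 6 rose and 1 fell, and 1 each of 10 endothelial and 4 red blood cell markers rose. Among mural cell markers 1 of 9 fell, and 0 of 10 macrophage and myeloid, 0 of 5 adipocyte and 0 of 5 skeletal muscle markers were called. Whether these cell types or the library series have a part in the subunit differences was not tested, and treatment and library name are in part confounded.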

How the data were processed

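RNA was measured in right ventricular tissue of 17 pigs, 1 library each. The deposited table holds raw read counts per gene, whole numbers in every cell, that the authors made from reads sequenced on an Illumina NextSeq. Per the submitters' processing notes the tools were Subread 1.6.2, SAMtools 1.7, HISAT2 2.1.0, Trimmomatic 0.33 and FastQC 0.11.7, and the build was Sscrofa11.1. Settings, strand, annotation release and the handling of multiply mapped reads: not given in the sources used here. Unstranded counting would add reads from overlapping genes to a member.

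Genes were filtered by filterByExpr (edgeR 4.0.16, R 4.3.3), scaled by TMM, and fitted in robust quasi-likelihood models over the 17 libraries. The treatment comparisons came from 1 model with no covariate. The contrast of M1 against M8 or M9 names came from a separate model with treatment as a term and its own estimate of the spread. P-values were adjusted by Benjamini-Hochberg over 15884 genes, with a threshold of 0.05. SE is the absolute log2 fold change over the square root of F, and log2 CPM uses a prior count of 2. The scripts were tested on simulated data. Alternatives were other scalings and filters, DESeq2 1.42.0, limma-voom (limma 3.58.1), covariates, thinning and left-out libraries. The design text says that sex, weight and batch were recorded, but none is given per library, so none was adjusted for.

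The members and lists were chosen with earlier results of these data known. Every member is named. Values by library are given for the members of each complex with the smallest and largest p between multidose and control and the smallest p by library name: each vehicle control and single dose library, and for multidose the lowest, median and highest or all 7. SDHC and ATP5MG, chosen after their values were seen, are given as ranges. From other lists at most the 2 genes of smallest p between multidose and control are named, with the defining markers; NDUFB6, COX4I2 and POLRMT were added after their values were seen. Positions, for 9 of 29 members matched by symbol, are RefSeq's for Sscrofa11.1. Gene lengths and sequences were not used here, so levels are not compared between genes. Samples are separate animals. With at least 6734 counts per member and library, the spread between libraries and not counting sets the precision. No animal has repeat libraries, so differences between animals and differences from library handling cannot be told apart in this spread.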

Additional observations from a re-analysis of the deposited data

Results flagged for a closer look

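By chance, about 1 in 20 sets would hold a library whose gap to its nearest neighbour is large for the group's range. The sets here are 29 genes read in the same libraries and are not independent, so their count cannot be set against that rate. Of 87 sets of values (29 members in 3 groups), 17 held such a library. Of these, 10 were low values of vehicle control 3, in log2 CPM: UQCR10 7.44, UQCR11 7.31, UQCRB 7.39, UQCRQ 7.75, COX6C 7.49, COX7B 7.69, COX7C 8, ATP5ME 7.32, ATP5MG 7.65 and ATP5MK 6.65. The other 4 controls had 9.27 to 9.45 for COX7C and 8.05 to 8.23 for ATP5MK. Each of the 10 was placed as a small subunit in the sorting by role, which was made with the values known. Vehicle control 1 was low for ATP5F1A, at 9.97 against 10.69 to 10.93. Single dose 4 was low for CYC1 (8.35), UQCRC1 (8.91), COX5A (8.26), ATP5MC1 (8.54) and ATP5MC3 (9.10). Multidose 4 was low for SDHC, at 7.33 against 8.17 to 8.63 in the other 6 multidose libraries.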

How the results depend on the processing

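No treatment comparison called a member under any alternative run, and the multidose minus control median stayed above 0 in each. For that median, leaving out 1 library gave 0.25 to 0.42, the name covariate 0.18 and the suffix _R 0.13; for single dose minus control these were 0.17 to 0.40, 0.19 and 0.061, and limma-voom gave 0.18. The multidose minus single dose median ran from -0.013 (without single dose 4) to 0.20 (without single dose 1); it was 0.23 with limma-voom, 0.035 in M8 and M9 libraries, 0.063 with the suffix covariate, 0.066 with the suffix _R and -0.033 with the library name as covariate, where SDHB was -0.063, ATP5F1A -0.091 and ATP5MC2 -0.049. Over all genes, DESeq2 called 8 (multidose) and 10 (single dose) against control, and leaving out 1 library gave 0 to 1 for single dose against control and for multidose against single dose.

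For M1 against M8 or M9, members called, all higher, with the share of all genes that rose in brackets, were 3 (5.92%) as reported, 5 with upper-quartile scaling (6.69%), a minimum of 1 CPM in 5 libraries (6.91%) or the name suffix as covariate (6.86%), 9 with DESeq2 (8.40%), 19 with limma-voom (14.4%), 14 without a treatment term (10.9%), 10 in dosed animals (8.44%), 1 in multidose libraries (2.41%), 11 without vehicle controls 1 and 3 (8.23%), and 0 (0%) in libraries with the suffix _R, where 1 library is M1. Leaving out 1 library gave 0 to 11. Genes called were 3003 with DESeq2, 2767 in dosed animals, 2802 without vehicle controls 1 and 3, 4553 with limma-voom, 3783 without a treatment term, 712 in multidose libraries and 0 with the suffix _R, and 858 to 2745 when 1 library was left out. The causes were not tested.

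Labelled replicate numbers are shared between groups, but 4 of 15 same-number pairs had deviations correlated above 0.1 (-0.22 to 0.41) and 2 of 15 libraries correlated best with their own number, so the numbers were not taken as pairs. With the number as a replicate block, 0 members and 11 genes were called by library name and 1 gene between multidose and control; the members' median was 0.58 by name and 0.16 for multidose minus single dose; by name CYC1 was 0.21, SDHA 0.0084 and UQCRC1 0.38, and multidose minus single dose for SDHA was -0.0069.

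Some log2 fold changes changed sign, and not all of these were small in the main fit. There, multidose minus control was 0.53 for ATP5MK, 0.46 for ATP5ME and 0.38 for ATP5F1C. By name, ATP5F1C was 0.46, UQCRC2 0.39 and SDHC 0.17 in the main fit. Multidose minus control, M8 and M9 libraries without vehicle control 3: ATP5F1C -0.019, ATP5ME -0.089, ATP5MK -0.063, UQCR10 -0.067, UQCR11 -0.063 and UQCRQ -0.044. Single dose minus control in the same libraries: ATP5F1D -0.0010, ATP5MG -0.038, ATP5MK -0.018, COX5A -0.042, COX6C -0.010, UQCR11 -0.055, UQCRB -0.036 and UQCRQ -0.037; in libraries with the suffix _R the same 8 were -0.0013, -0.039, -0.018, -0.043, -0.011, -0.055, -0.037 and -0.038, and multidose minus control for UQCRQ was -0.043. Without vehicle controls 1 and 3, UQCRC1 was -0.053 for multidose, and for single dose ATP5F1D was -0.011, COX5A -0.054, SDHA -0.037 and UQCRC1 -0.00050. Multidose minus single dose: ATP5F1A was -0.0017 with the 1 CPM minimum, -0.010 with upper-quartile scaling, -0.054 with the suffix covariate and -0.045 in M8 and M9 libraries, where SDHB was -0.049 and UQCRC1 0.035; SDHA was -0.048 with limma-voom, -0.044 with the suffix _R and -0.021 with the suffix covariate. Throughout this section, sign changes between the dosing schedules were recorded only for the members chosen by p for values by library. Other members also changed sign. Among M8 and M9 libraries 17 of 29 members were above 0, and the lowest was ATP5ME, at -0.136. With the suffix covariate 22 were above 0, and the lowest was SDHC, at -0.085. By name, CYC1 was 0.060 and UQCRC1 0.035 with limma-voom, CYC1 0.023 without a treatment term, and SDHC -0.019 in multidose libraries and -0.013 with the suffix covariate. With the suffix _R, by name, ATP5F1A was -0.16, ATP5F1C -0.11, ATP5F1D -0.22, SDHC -0.95, SDHD -0.18 and UQCRC2 -0.18.

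Leaving out 1 library gave, by name, -0.024 to 0.32 for SDHC and -0.13 to 0.017 for UQCRC1; for multidose minus control, -0.057 to 0.15 for SDHA and -0.0083 to 0.19 for UQCRC1; for single dose minus control, -0.097 to 0.11 for SDHA; and for multidose minus single dose, -0.12 to 0.090 for ATP5F1A, -0.037 to 0.10 for SDHA and -0.068 to 0.13 for SDHB. The multidose minus single dose ranges were likewise recorded only for the members chosen by p. The lowest count of a member in any library was 6734. Thinning cannot remove library differences that go with depth, and a part of depth in the differences was not tested.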
